A study of Mus musculus with 4 samples.

Results

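The genes described here sense protein and nutrient stress or act directly downstream of those sensors: ERN1, EIF2AK3, XBP1, DDIT3, TRIB3, SESN2, DDIT4 and ASNS. DDIT3, SESN2 and ERN1 were selected on their log2 difference between F5446 and control in these same arrays, among the largest of the stress response genes; 7 further genes were added by their role, and each gene was read from its named probe set of highest mean. Of the 10 genes sought, 8 had a named probe set, 1 each, among 14884 named genes. CHAC1 and PPP1R15A had none and were not analysed here. Because F5446 against control is the contrast that led to the choice, the values of the 8 genes are given as a description with no test.

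The data come from SW620, a line derived from a human colon carcinoma and grown in RPMI medium with 10% serum. The control group (Ctrl) held 2 arrays of untreated cells, and the other group held 2 arrays of cells given 50 nM F5446 for 2 days. F5446 is a small molecule described as selective for SUV39H1, a methyltransferase that acts on lysine 9 of histone H3. Although mouse is the organism entered in the sample records, the line is human according to its growth conditions and the array's probe sets carry human gene symbols, so human genes are reported. The design text calls the replicates biological, without naming separate cultures. The p-values therefore reflect only array-to-array spread, which may be technical.

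Cells meet misfolded protein in the endoplasmic reticulum (ER) with membrane sensors. IRE1, the product of ERN1, splices XBP1 mRNA so that it yields an active transcription factor, PERK (EIF2AK3) phosphorylates the translation factor eIF2, and ATF6 is cut to release a transcription factor. PERK shares its target with the kinases GCN2, PKR and HRI, which respond to amino acid shortage, double-stranded RNA and haem or mitochondrial stress; this common route is the integrated stress response. Phosphorylated eIF2 slows translation in general while favouring that of ATF4, which induces genes such as DDIT3 (CHOP), TRIB3, ASNS, SESN2 and DDIT4. Arrays of this kind read total mRNA: they show neither XBP1 splicing, nor phosphorylation, nor ATF4 protein.

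The deposited value of each probe set was taken as a log2 signal. The arrays were alike in scale, with medians over all 53617 probe sets between 4.40 and 4.44. Treatment went with differences at a large share of genes: 2714 genes (18.2%) rose and 3372 (22.7%) fell in limma's test at an adjusted p under 0.05, with a median log2 difference of -0.05 over all genes. Over the named genes alone, unlike over all probe sets, the median signal was lower on both F5446 arrays than on both controls. When each array was instead centred on its named-gene median, the median difference became 0.08 and the counts 3420 higher and 2735 lower. SUV39H1 itself was lower in treated cells, at 9.12 and 9.17 in the controls and 7.47 and 7.36 after F5446. Of 9 measured markers of colon epithelium, 2 rose and 5 fell, and their summed linear signal was 8400 and 8430 in the controls and 4820 and 4870 after F5446. VIL1, the gene of the microvillar actin-binding protein villin, fell 14.7-fold, from 10.4 and 10.2 to 6.37 and 6.47, and CEACAM5, a carcinoembryonic antigen gene, rose 3.80-fold, from 4.62 and 4.30 to 6.33 and 6.44. EPCAM, KRT18 and KRT19 lay above 10 on every array, while CDX1 and GPA33 stayed under 5.5; markers were named after their values were seen. Of 7 measured markers of immune, endothelial and stromal cells, none rose and 2 fell, LYZ and LUM. LYZ read 6.77 and 6.66 in the controls and 4.84 and 5.01 after F5446. LUM went from 7.04 and 7.03 to 4.20 and 3.83. Only 2 of the 7, LYZ and DES, exceeded 4.42, the median of all probe sets, on every array. The summed linear signal of the 7 was 364 and 376 in the controls and 172 and 181 after F5446. PTPRC, CD3E, COL1A1 and COL3A1 had no named probe set. These marker shifts accompany every difference below, and their part in them was not tested. All arrays come from the cultured SW620 line, so the marker lists do not count cells of other types. In bulk RNA of this line, fewer cells expressing a gene and less of its RNA per cell cannot be told apart.

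ERN1 and EIF2AK3, which encode the sensors IRE1 and PERK, were both higher after F5446, by unequal amounts. ERN1 (probe set 16847771) read 5.62 and 5.42 in the controls and 8.41 and 8.43 after F5446. The treated arrays almost coincided and lay far above both controls, a log2 difference of 2.90 ± 0.11 (SE, n = 2 each), or 7.48-fold. EIF2AK3 (probe set 16900053) read 6.49 and 6.38 in the controls and 7.62 and 7.60 after F5446. Its groups did not overlap either, but the difference was smaller, 1.18 ± 0.10 on the log2 scale or 2.26-fold, the least of the 8 genes.

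The transcription factor genes XBP1 and DDIT3 were also higher. XBP1 (probe set 16933535), whose mRNA is the substrate of IRE1, read 8.17 and 8.02 in the controls and 9.75 and 9.73 after F5446. That is a log2 difference of 1.65 ± 0.08 (SE, n = 2 each), or 3.13-fold in total XBP1 mRNA, with no overlap. DDIT3 (probe set 16766578) encodes CHOP, a factor linked to cell death under prolonged ER stress. It read 5.63 and 4.95 in the controls and 8.12 and 8.28 after F5446. The groups were far apart, with a log2 difference of 2.91 ± 0.19 (7.52-fold), yet the control arrays differed from each other by 0.68, a wider gap than at all but 1.91% of named genes. Against a median control gap of 0.13 over all genes, DDIT3 had the largest standard error of the 8. That error is moderated, which means it borrows variance from other genes, and may understate the scatter of DDIT3 itself. The SD of DDIT3 was 0.48 over the controls and 0.11 over the F5446 arrays. Its log2 difference was 3.25 without control replicate 1 and 2.57 without control replicate 2.

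Among the 8 genes, TRIB3, SESN2 and DDIT4, which hold back growth signalling or the stress response itself, showed the same direction. Other genes that restrain mTORC1, given further below, did not all do so. TRIB3 encodes a pseudokinase that binds AKT and ATF4 and damps their activity. Its probe set (16910609) read 6.95 and 6.97 in the controls and 9.34 and 9.24 after F5446, a log2 difference of 2.33 ± 0.08 (5.02-fold). SESN2 encodes sestrin 2, a leucine-binding protein that restrains the growth kinase complex mTORC1 through the GATOR complexes. SESN2 (probe set 16661544) read 6.69 and 6.36 in the controls and 9.67 and 9.59 after F5446. Its log2 difference of 3.10 ± 0.11 (SE, n = 2 each), or 8.57-fold, was the largest of the 8 and ranked 26 among the rises of all 14884 genes. DDIT4 encodes REDD1, which restrains mTORC1 through the TSC complex. DDIT4 (probe set 16705961) read 6.42 and 6.43 in the controls and 9.20 and 9.12 after F5446, a log2 difference of 2.74 ± 0.08, or 6.67-fold. The treated arrays of these 3 genes all lay more than 2 log2 units above the controls.

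ASNS, the enzyme that makes asparagine and a classic target of ATF4, differed by less. Its probe set (17060061) read 7.61 and 7.70 in the controls and 9.24 on both treated arrays. The log2 difference was 1.59 ± 0.07 (SE, n = 2 each), or 3.01-fold, without overlap.

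**Figure D1:**
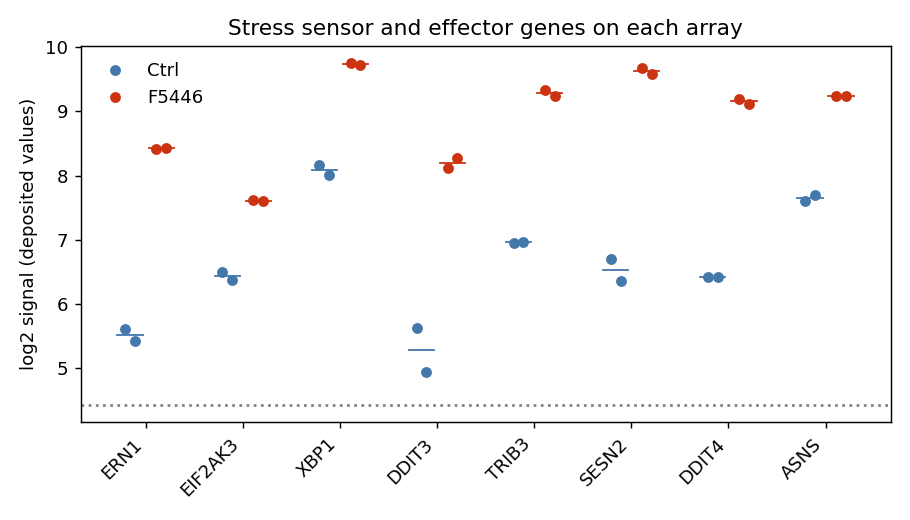
Deposited log2 signal (vertical axis) of the 8 genes on each array, with control arrays in blue and F5446 arrays in red; points are single arrays, short lines are group means over 2 arrays, and the dotted line marks 4.42, the median of all probe sets. In every gene both treated arrays sit above both control arrays, and the control pair of DDIT3 is spread most widely.

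Taken as a group, the treated arrays lay above both controls at all 8 genes, against 28.4% of all named genes; nothing is read from this share, since the contrast guided the choice. The log2 differences ran from 1.18 to 3.10, with a median of 2.53. EIF2AK3, ASNS and XBP1 lay between 1.18 and 1.65, and TRIB3, DDIT4, ERN1, DDIT3 and SESN2 between 2.33 and 3.10. ERN1, DDIT3 and SESN2 were chosen for the size of their difference, so their place in the upper range is no result. Among all genes, 0.17% rose more than SESN2, 0.25% more than ERN1 and 3.79% more than EIF2AK3.

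**Figure D2:**
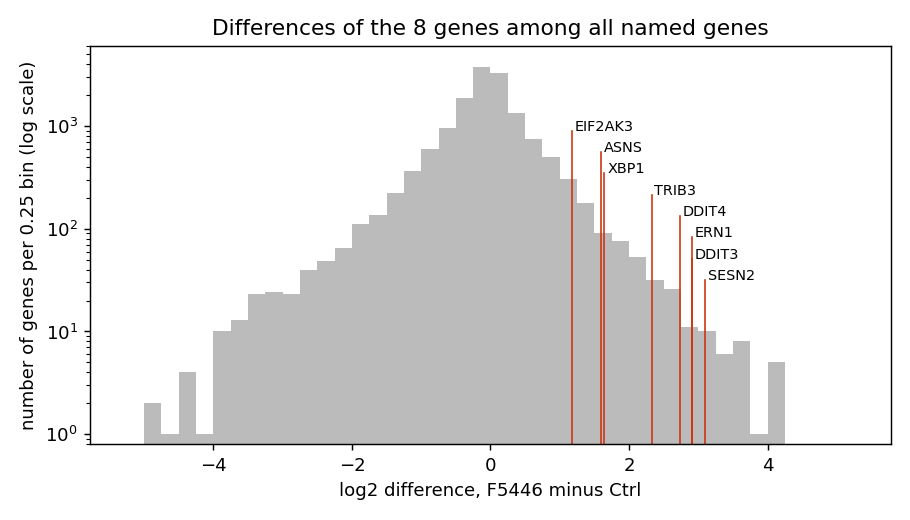
Number of named genes (log scale) by log2 difference between F5446 and control, in bins of 0.25, with the 8 genes marked by red lines whose heights have no meaning. All 8 lie in the right-hand tail, from EIF2AK3 at 1.18 to SESN2 at 3.10.

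The spread within a group differed by gene. The control pair of DDIT4 differed by less than the control pairs of 94.4% of genes and that of TRIB3 by less than 92.4%. For SESN2 the control gap of 0.33 was exceeded at 15.7% of genes. On the treated side the pair gap of ASNS was narrower than that of 99.1% of genes, and that of ERN1 narrower than 91.8%. DDIT3, so variable in the controls, had an F5446 gap of 0.15 that was exceeded at 40.5% of genes.

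The genes whose profile over the 4 arrays was most like each of the genes chosen for their rise were found by the root mean square difference in log2 signal, after centring each gene on its own mean. For ERN1 they were WSB1 (0.031), CPEB4 (0.032) and HSD17B2 (0.043), with log2 differences of 2.92, 2.93 and 2.95. For DDIT3 they were LIF (0.095), RHBDF1 (0.115) and HSD17B2 (0.14). For SESN2 they were UPP1 (0.072), FEM1C (0.085) and KDM7A (0.086). Among the 8 genes themselves the closest profiles were those of XBP1 and ASNS, 0.091 apart, followed by ERN1 with SESN2 (0.115) and with DDIT4 (0.116). With 4 arrays in 2 groups, this measure follows mainly the size of the difference between the groups.

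The other genes of these pathways did not all go the same way. Their lists were chosen with earlier results of these data known, so the shares below are not independent evidence. Of 175 genes listed by role, 106 had a named probe set, of which 53 (50.0%) rose, 21 (19.8%) fell and 32 did not pass, with a median log2 difference of 0.22; over all named genes 18.2% rose, 22.7% fell and the median was -0.05. With single arrays left out, 42 to 49 rose and 14 to 17 fell.

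**Figure D3:**
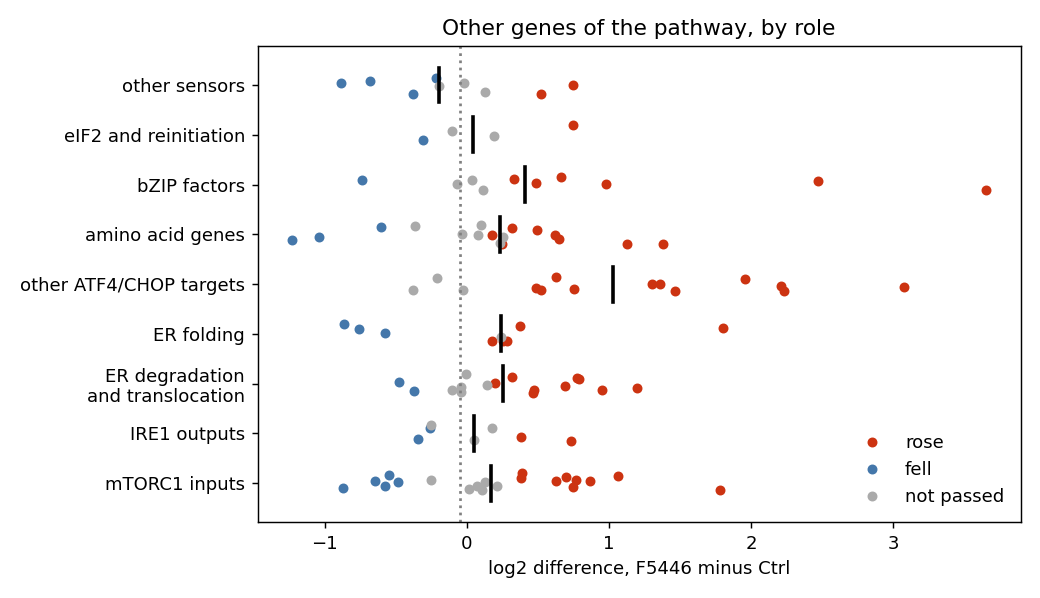
Log2 difference between F5446 and control (horizontal axis) of the 106 other pathway genes, in rows by role; each point is a gene, red if it rose, blue if it fell and grey if it did not pass limma's test, with vertical placement within a row random. Black bars are list medians and the dotted line is the median of all named genes; the row of other ATF4 and CHOP targets stands furthest to the right, at a median of 1.03, and that of the other sensors lies left of the dotted line, at -0.20.

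The other sensor genes went in both directions. Of 9 measured, 2 (22.2%) rose, 4 (44.4%) fell and 3 did not pass, against 18.2% and 22.7% of all named genes. With 9 genes, the share of rises lies near that of all named genes and is no result about the list. ATF6, the remaining ER sensor, read 8.82 and 8.90 in the controls and 9.58 and 9.63 after F5446, a 1.68-fold rise (adjusted p = 1.73e-05). Its paralogue ATF6B fell 1.30-fold (adjusted p = 0.0009). EIF2AK1, which encodes HRI, fell 1.60-fold, from 10.6 and 10.5 to 9.86 and 9.85 (adjusted p = 2.76e-05). Along the mitochondrial route to HRI, the relay gene DELE1 rose 1.44-fold while OMA1, whose protease cuts the DELE1 protein, fell 1.84-fold (adjusted p = 0.00074 and 0.00016). EIF2AK2, the double-stranded RNA sensor PKR, fell 1.16-fold (adjusted p = 0.021), a call that was lost without control replicate 2 (0.105), F5446 replicate 1 (0.133) or F5446 replicate 2 (0.0865), without an intensity trend (0.143) and with arrays centred (0.301). EIF2AK4, which encodes GCN2, had a log2 difference of -0.20 ± 0.09 and its activator GCN1 one of -0.02 ± 0.09 (adjusted p = 0.14 and 0.89). ERN2, the IRE1 paralogue of mucosal epithelium, had a log2 difference of 0.13 ± 0.16 (adjusted p = 0.60).

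Between the sensors and ATF4 stands the translation machinery, of which only 4 of 14 listed genes were measured; the subunits of eIF2 and eIF2B had no named probe set. NCK1, an adaptor that has been linked to eIF2 dephosphorylation, rose 1.68-fold (adjusted p = 0.00054). DENR, which aids ribosomes in reinitiating, fell 1.24-fold (adjusted p = 0.043), but missed the threshold without control replicate 2 (0.292) or F5446 replicate 1 (0.346), with arrays centred (0.194) and without an intensity trend (0.156). Its partner MCTS1 and the related EIF2D, named as the rest of the measured list, did not pass.

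Of 10 measured stress-responsive bZIP factors and their partners, 6 (60%) rose, 1 (10%) fell and 3 did not pass, with a median log2 difference of 0.41. Over all named genes 18.2% rose and 22.7% fell. ATF4 read 10.1 and 9.98 in the controls and 10.7 on both treated arrays, a rise of 1.58-fold (log2 0.66 ± 0.06, SE, n = 2 each; adjusted p = 2.63e-05). Its mRNA thus rose by less than any of the 8 genes, although a test between genes was not made. ATF3, a factor induced by ATF4 and by many other stresses, read 4.86 and 4.80 in the controls and 7.50 and 7.09 after F5446, a 5.54-fold rise (adjusted p = 1.87e-06). CREBRF, which promotes the degradation of the ER-bound factor CREB3, read 4.24 and 4.08 in the controls and 7.65 and 7.97 after F5446, a 12.6-fold rise. Its controls lay under the median of all probe sets, and the table has no detection calls, so the true fold may be larger. CREB3L2 rose 1.97-fold, CREBZF 1.40-fold and CREB3 1.26-fold. CREB3L4 fell 1.67-fold (adjusted p = 0.0058), a call that was lost without control replicate 1 (0.0647) or F5446 replicate 1 (0.0792), leaving 0 falls in the list. ATF5, CREB3L1 and CREB3L3 did not pass, with log2 differences of 0.04, 0.11 and -0.07 and overlapping groups.

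Most of the other measured targets of ATF4 and CHOP rose: the 14 genes comprised 11 rises (78.6%), 0 falls and 3 that missed the threshold, at a median log2 difference of 1.03. Over all named genes 18.2% rose and 22.7% fell. The list was chosen with earlier results of these data known, so its share of rises is not independent evidence. At an unadjusted p under 0.05, 1 of the 14 was lower, ERO1A. PMAIP1, the gene of the pro-apoptotic protein NOXA, read 6.91 and 7.02 in the controls and 9.98 and 10.1 after F5446, an 8.43-fold rise. VEGFA, the angiogenic growth factor gene, rose 4.69-fold, from 6.45 and 6.52 to 8.79 and 8.64. KLHL24, which encodes a substrate adaptor of a ubiquitin ligase, rose 4.63-fold, from 5.65 and 5.68 to 7.86 and 7.89. The list also holds CARS1, the cysteinyl-tRNA synthetase gene, which rose 1.54-fold (adjusted p = 0.00012) and is named because it belongs with the synthetases of the next list. The adjusted p of PMAIP1, VEGFA and KLHL24 ran from 2.40e-08 to 3.24e-07. ERO1A, an ER oxidase gene often given as a CHOP target, did not follow them, with a log2 difference of -0.21 ± 0.08 (adjusted p = 0.074, but 0.0455 with dim genes left out and 0.0227 after quantile normalization, both as a fall), and neither did BCL2L11 at -0.03 ± 0.12 (adjusted p = 0.90). FGF21, a secreted metabolic hormone gene, had a log2 difference of -0.38 ± 0.21 (adjusted p = 0.19). It read 4.32 and 4.57 in the controls and 3.82 and 4.31 after F5446, so the nearest control and treated arrays almost coincided. Only control replicate 2 exceeded 4.42, the median of all probe sets. These 3 genes, the ones of the list that did not pass, are named after their values were seen.

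The amino acid list went in both directions. The 17 measured genes comprised 8 rises (47.1%), 3 falls (17.6%) and 6 that missed the threshold, with a median log2 difference of 0.23. Among all named genes the shares were 18.2% and 22.7%, so the share of falls is near that of all named genes. Split by function after the values were seen, the 9 aminoacyl-tRNA synthetase genes held all 8 rises and the 8 enzymes of amino acid and one-carbon metabolism held all 3 falls. That count leaves out ASNS, described above, an enzyme of this kind that was 3.01-fold higher. The seryl-tRNA synthetase gene SARS1 read 8.90 and 8.76 in the controls and 10.2 on both treated arrays, a 2.60-fold rise (adjusted p = 6.86e-07). The tryptophanyl and alanyl synthetase genes WARS1 and AARS1 rose 2.18-fold and 1.56-fold. In contrast, PSPH and PSAT1, which encode enzymes of serine synthesis, fell 2.34-fold and 2.05-fold. PSAT1 read 11.5 on both control arrays and 10.5 and 10.4 after F5446 (adjusted p = 7.92e-07), and PSPH 9.38 and 9.46 against 8.23 and 8.15 (adjusted p = 1.42e-06). PYCR1, an enzyme of proline synthesis, fell 1.52-fold (adjusted p = 9.61e-05). PHGDH, the first enzyme of serine synthesis, had a log2 difference of 0.23 ± 0.08 (adjusted p = 0.052, but 0.0486 without control replicate 1 and 0.00699 with arrays centred) and is named for its place beside PSAT1 and PSPH. No amino acid transporter of the list had a named probe set.

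Genes of ER protein folding, which ATF6 and spliced XBP1 induce, were also divided. Of 9 measured, 5 (55.6%) rose, 3 (33.3%) fell and 1 did not pass, against 18.2% and 22.7% of all named genes. HSPA5, HSP90B1 and the PDIA genes had no named probe set. ERO1B, an oxidase that drives disulphide bonding, read 3.82 and 4.22 in the controls and 5.68 and 5.96 after F5446, a 3.48-fold rise from controls under the median of all probe sets. TXNDC11, a thioredoxin-domain gene, rose 1.30-fold and the chaperone gene HYOU1 1.21-fold. CALR, which encodes the lectin chaperone calreticulin, fell 1.82-fold, from 11.6 and 11.7 to 10.7 and 10.8 (adjusted p = 1.08e-06). SDF2L1, a cofactor of the chaperone BiP, fell 1.70-fold, from 7.55 and 7.47 to 6.62 and 6.87 (adjusted p = 0.00044). CRELD2 fell 1.49-fold, from 5.99 and 6.07 to 5.39 and 5.51 (adjusted p = 0.0056). The smaller changes depended on single arrays: 3 genes of the list rose without control replicate 1, 2 without F5446 replicate 1, 3 without F5446 replicate 2 and 2 without an intensity trend. Without F5446 replicate 1 the adjusted p was 0.0543 for HYOU1 (0.0784 without an intensity trend) and 0.0595 for CRELD2.

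**Figure D4:**
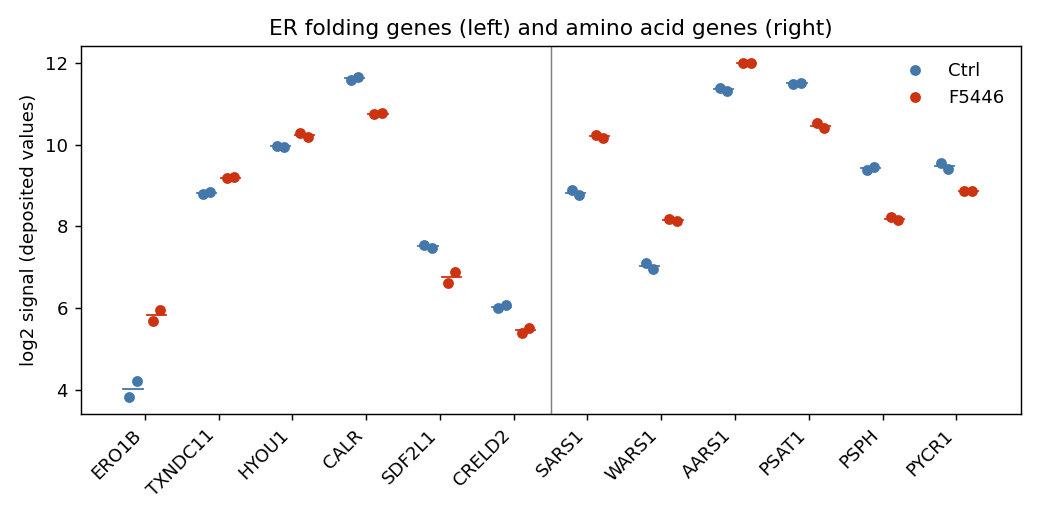
Deposited log2 signal (vertical axis) of ER folding genes, left of the grey line, and amino acid genes, right of it, on each array; points are single arrays, blue for control and red for F5446, and short lines are means of 2 arrays. ERO1B, TXNDC11, HYOU1, SARS1, WARS1 and AARS1 are higher on both treated arrays, and CALR, SDF2L1, CRELD2, PSAT1, PSPH and PYCR1 lower.

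Among 16 measured genes of ER-associated degradation and of the protein-conducting channel, 9 (56.25%) rose and 2 (12.5%) fell, with a median log2 difference of 0.26. The shares over all named genes were 18.2% and 22.7%. SELENOS, a selenoprotein that anchors the p97 ATPase at the ER membrane, read 5.82 and 5.39 in the controls and 6.76 and 6.85 after F5446, a 2.29-fold rise (adjusted p = 0.00019). SEL1L, the scaffold of the HRD1 ubiquitin ligase, rose 1.93-fold, from 8.79 and 8.80 to 9.71 and 9.77 (adjusted p = 3.02e-06). ERLEC1, a lectin of the same complex, rose 1.73-fold (adjusted p = 2.48e-05). SPCS1, a signal peptidase subunit, fell 1.39-fold (adjusted p = 0.0012). DERL3, a derlin, fell 1.29-fold (adjusted p = 0.046), a call lost when any array was left out, with adjusted p of 0.151 and 0.112 without control replicates 1 and 2 and 0.0897 and 0.231 without F5446 replicates 1 and 2; it was 0.183 with arrays centred and 0.051 with robust variances.

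Among 7 measured genes tied to IRE1 as adaptors, regulators or substrates, 2 (28.6%) rose and 2 (28.6%) fell, with a median log2 difference of 0.05. With 7 genes these shares lie near the 18.2% and 22.7% of all named genes and are no result about the list. BAX, a pore-forming death effector that can bind IRE1, rose 1.66-fold, from 7.98 and 7.87 to 8.69 and 8.62 (adjusted p = 6.75e-05), and BAK1 rose 1.30-fold (adjusted p = 0.0073, but 0.0813 without F5446 replicate 1). HGSNAT, a lysosomal enzyme gene described as a substrate of IRE1-dependent decay, fell 1.27-fold, and TXNIP, an inhibitor of thioredoxin, fell 1.20-fold (adjusted p = 0.024 for each). Without one array the adjusted p of HGSNAT was 0.0955 and 0.0646 (control replicates 1 and 2) and 0.128 and 0.0942 (F5446 replicates 1 and 2), and that of TXNIP 0.152 (control replicate 1), 0.179 and 0.0817 (F5446 replicates 1 and 2). With each array centred neither fell (adjusted p = 0.131 and 0.213), and TXNIP also missed without an intensity trend (0.122) and with its probe sets averaged (0.199). RTCB, the ligase that joins the spliced XBP1 exons, had a log2 difference of 0.05 ± 0.07 (adjusted p = 0.67) and is named for that role.

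SESN2 and DDIT4 act on mTORC1, and of 20 other measured genes on that route 9 (45%) rose, 5 (25%) fell and 6 did not pass. Over all named genes 18.2% rose and 22.7% fell, so the share of falls lies near that of all named genes and is no result about the list. SESN3, a paralogue of SESN2, went the other way: it read 8.06 and 7.98 in the controls and 7.08 and 7.21 after F5446, a 1.83-fold fall (adjusted p = 5.44e-05). The third sestrin, SESN1, had a log2 difference of 0.21 ± 0.14 (adjusted p = 0.30), and DDIT4L, the paralogue of DDIT4, one of 0.13 ± 0.16 (adjusted p = 0.61); both are named as paralogues. RRAGC, which encodes a Rag GTPase that brings mTORC1 to the lysosome, read 6.26 and 6.08 in the controls and 7.98 and 7.92 after F5446, a 3.44-fold rise (adjusted p = 1.45e-06). TSC1, a subunit of the complex through which DDIT4 acts, rose 2.09-fold, and FLCN, which encodes the Rag regulator folliculin, rose 1.82-fold (adjusted p = 6.01e-06 and 0.00025). NPRL3 and DEPDC5, subunits of the GATOR1 complex, fell 1.56-fold and 1.49-fold (adjusted p = 0.00013 and 0.0055). The call of DEPDC5 was lost without control replicate 1 (0.0542) or F5446 replicate 2 (0.0686).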

How the data were processed

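The deposited table holds 1 log2 value per probe set and array for 2 control and 2 F5446 arrays; its scale is not stated and was inferred from values of 0.710 to 13.8. Per the labels' protocols, sense-strand cDNA was biotin-labelled; Partek appears in the submitters' processing notes; how signals were background-corrected and normalized is not given in the sources used. For arrays, their number limits precision.

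The platform annotation names 16098 probe sets; the one of highest mean represented each of 14884 genes. Differences were estimated with limma 3.58.1 under R 4.3.3 (lmFit and eBayes with an intensity trend, all 4 arrays). Benjamini-Hochberg adjustment was made over all genes, with a threshold of 0.05. Errors of differences are limma's moderated standard errors, which borrow variance from other genes. The test was tested on simulated data. "Rose" and "fell" mark genes past this threshold; a gene that missed it is not shown to be unchanged.

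The members and lists were chosen with earlier results of these data known. All members, SUV39H1, all measured sensors and bZIP factors were named; from each other list, up to 3 rises and 3 falls of largest size without overlap; and the 3 genes of nearest profile. Genes named outside this rule are marked where they appear; cell markers were named after their values were seen. Genomic positions and sequences were not used here.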

Additional observations from a re-analysis of the deposited data

How the results depend on the processing

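All 8 genes stayed higher after F5446 with each array left out, with centring and with quantile normalization. Both treated arrays lay above both controls at each gene, so leaving an array out could not reverse the direction. The direction is therefore no added evidence. A dim-gene filter, 2 other variance models, averaged probe sets and a replicate block were also run. These could not change the log2 differences of the 8 genes, which have 1 named probe set each in a balanced design, so their values were identical. Centring each array raised the log2 difference of all 8 genes by the same amount. That shift exceeded the replicate spread for ASNS (1.72), DDIT4 (2.86), EIF2AK3 (1.30), ERN1 (3.03), TRIB3 (2.45) and XBP1 (1.77). It did not for DDIT3 (3.04) and SESN2 (3.23), whose replicates were spread more widely. Quantile normalization moved ASNS (1.53), DDIT4 (2.67) and TRIB3 (2.27) beyond that spread. With single arrays left out the ranges were 1.55 to 1.63 for ASNS, 2.57 to 3.25 for DDIT3, 2.70 to 2.78 for DDIT4, 1.12 to 1.23 for EIF2AK3, 2.804 to 3.002 for ERN1, 2.93 to 3.27 for SESN2, 2.28 to 2.38 for TRIB3 and 1.57 to 1.72 for XBP1. Including unnamed probe sets, 53617 probe sets were tested, of which 6274 were higher and 5483 lower. More were thus higher than lower, the reverse of the 2714 and 3372 named genes, and the reason was not tested. With single arrays left out, 2069 to 2431 genes were higher and 2580 to 2891 lower. The deviations of same-numbered arrays correlated at 0.04, so the numbers were not taken to pair the arrays. With the replicate block 2722 genes were higher and 3342 lower, and of the other pathway genes 54 rose and 22 fell; DERL3 missed the threshold (adjusted p = 0.055), while ERO1A fell (0.0317) and PHGDH rose (0.0433). Dim genes cannot be told from background without detection calls.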
